A study of Rattus norvegicus with 23 samples.

Results

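Dorsal hippocampal RNA of old control rats (aging control, AC) was compared with that of young control rats (YC) across all measured genes. The comparison used the 5 AC and 6 YC arrays, 11 of the 23 arrays of the series, chosen by their titles. All animals were male rats of the inbred F344 strain, 5 to 6 months old in YC and 21 months old in AC. AC rats had bilateral CA1 injections of an adeno-associated virus that carries eGFP (enhanced green fluorescent protein) under the CaMKII promoter, which is active in excitatory neurons, at 1.86e+13 genome copies per mL. The labels put that injection at 18 months of age and the series' design text at 13 months. YC rats are labelled sham, whereas the design text gives them no injection. Age, surgery and vector therefore cannot be told apart in any difference given here. Rats of both groups had been trained in the Morris water maze, and 1 array was hybridised per animal. The other 12 arrays came from old rats given an FKBP1b vector for a short (ST) or long (LT) time. In the fit they served only as a further estimate of the spread between animals. They also counted in the choice of probe sets and in the centring of the list scores used below. For a few genes their difference from YC is given as well.

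Microglia are the resident macrophages of the brain, and astrocytes enwrap its synapses and vessels. In the aging brain both are known to shift towards a reactive state, in which complement, antigen presentation and lysosomal genes are raised. Excitatory neurons of CA1 and the dentate gyrus, which supply most of the RNA of a hippocampal sample, are known to alter calcium handling and excitability with age, largely without cell loss. The choroid plexus is the secretory epithelium of the ventricle that borders the hippocampus. It makes very large amounts of transthyretin (*Ttr*), so that a small piece of it can change a hippocampal sample.

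Signals are intensities on a linear scale, and differences are log2 fold changes of AC over YC with their standard errors (SE). A gene was called when limma gave it an adjusted p under 0.05, with the adjustment over 13339 probe sets. Where a gene has several probe sets, the brightest one stands for it. AC signals are given in the order of replicates 1 to 5, and YC signals by their lowest, median and highest value. In tissue samples such as these, a difference in the number of cells of a type and a difference in RNA per cell cannot be told apart.

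Markers of CA1 and the dentate gyrus fitted the label in YC. Of the 5 AC arrays, replicates 3 and 4 stood apart in choroid plexus, ependyma and blood cell genes, and replicate 5 in other genes given below. Other genes varied widely within both groups. *Zic1* ran from 642 to 2009 in YC and from 318 to 2139 in AC, and *Prkcd* from 276 to 700 and from 282 to 771. Of 13 genes of thalamus and neighbouring cortex, 1 was higher and none lower in AC, with a median of −0.12. Whether the amount of neighbouring tissue differed between samples was not tested. *Wfs1*, a marker of CA1 pyramidal neurons, had signals from 2473 to 2812 in YC, and *Prox1*, a marker of dentate granule cells, from 640 to 911. Choroid plexus genes were far above YC on AC replicates 3 and 4. The *Ttr* signal was 482, 702 and 1113 at its lowest, median and highest in YC, and 694, 363, 14549, 16411 and 514 in AC. *Kcnj13*, a potassium channel of that epithelium, had 33, 44 and 63 in YC, and 58, 41, 1961, 3273 and 50 in AC. The score of the list of 29 choroid plexus genes (the mean of their centred log2 signals) was −0.44 to −0.30 in YC, 1.76 and 2.22 on AC replicates 3 and 4, and −0.54 to −0.41 on the other 3 AC arrays. None of the 29 passed the test, since the AC arrays disagreed so widely. Ependyma genes moved with them on the same 2 arrays, with a score of 0.29 and 0.58 against −0.11 to 0.07 in YC. Blood cell genes were also high there, with a score of 0.86 and 0.82 against −0.15 to 0.06. List counts below are therefore also given without AC replicates 3 and 4 and without LT replicates 2 and 5, which carry the same choroid plexus genes. This is referred to as without the choroid-high arrays. The blood score of those LT arrays was −0.05 and −0.07, so blood genes did not follow choroid plexus genes on them. Leaving the AC arrays out removes both traits at once. Fewer arrays also leave the test less able to call a difference of the same size.

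AC replicate 5 stood apart in another way. Its score for homeostatic microglia genes was 0.78, against −0.00 to 0.03 on the other 4 AC arrays and −0.29 to −0.25 in YC. Its myelin score was −0.41, against −0.09 to 0.11 on the other AC arrays and −0.07 to 0.01 in YC. *Wfs1* was at 580 on it, against 2568 to 2996 on the other AC arrays, and *Prox1* at 333, against 741 to 950. Other hippocampal markers did not fall on it. *Fibcd1* was at 905, against 565 to 670 on the other AC arrays, and *Grik4* at 1135, against 801 to 970. *Neurod6* was at 2226, inside their range of 2163 to 2790. The RNA integrity number of replicate 5, 8.9, was the lowest of the 11. Values without it are given for some of the lists and genes that moved.

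**Figure D1:**
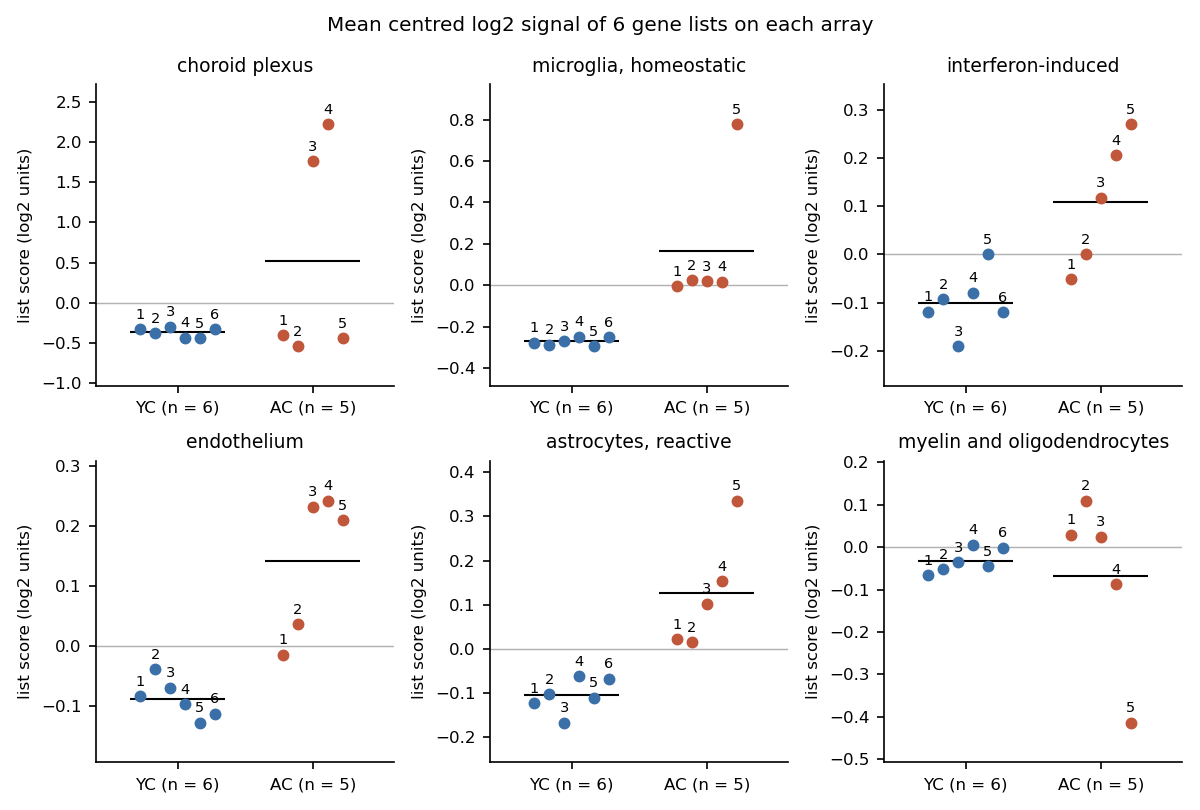
Score of 6 gene lists on each YC and AC array, where the score is the mean over the list's genes of the log2 signal minus that gene's mean over 23 arrays; points are animals numbered by replicate and lines are group means. AC replicates 3 and 4 reach 1.76 and 2.22 for choroid plexus genes, AC replicate 5 reaches 0.78 for microglia genes and −0.41 for myelin genes, and all 5 AC arrays lie above all 6 YC arrays for microglia and reactive astrocyte genes.

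Over all genes, 1300 of the 13339 probe sets were called (9.75%), 742 higher (5.56%) and 558 lower (4.18%) in AC. They stand for 672 higher and 538 lower genes of 12604, or 5.33% and 4.27%. Most differences were small. The median over the higher genes was 0.23 and over the lower genes −0.22, only 7 genes were higher by over 1 log2 unit, and 1 was lower by as much. Of the higher genes, 336 had every AC array above every YC array, and 177 of the lower genes had every AC array below (over all genes, called or not, 3.05% and 1.87% were apart in this way). These counts rest on the spread pooled over the 4 groups. AC arrays varied more than YC arrays (median SD of the log2 signal 0.108 against 0.072), and with the AC and YC arrays alone 385 probe sets passed. Without the choroid-high arrays 398 passed, 303 of them higher, and without AC replicate 5 the count was 1582. The list counts below have to be read beside the shares over all genes in the same setting. These were 2.28% higher and 0.722% lower without the choroid-high arrays, and 6.44% and 5.32% without AC replicate 5. With the AC and YC arrays alone they were 1.81% and 1.11%. No called gene changed its direction without the choroid-high arrays. The split of higher against lower calls depended on the scaling of the arrays: 742 against 558 as deposited, 668 against 668 after quantile normalization, and 507 against 1200 with equal array medians, where the median gene shifted from −0.01 to −0.04.

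**Figure D2:**
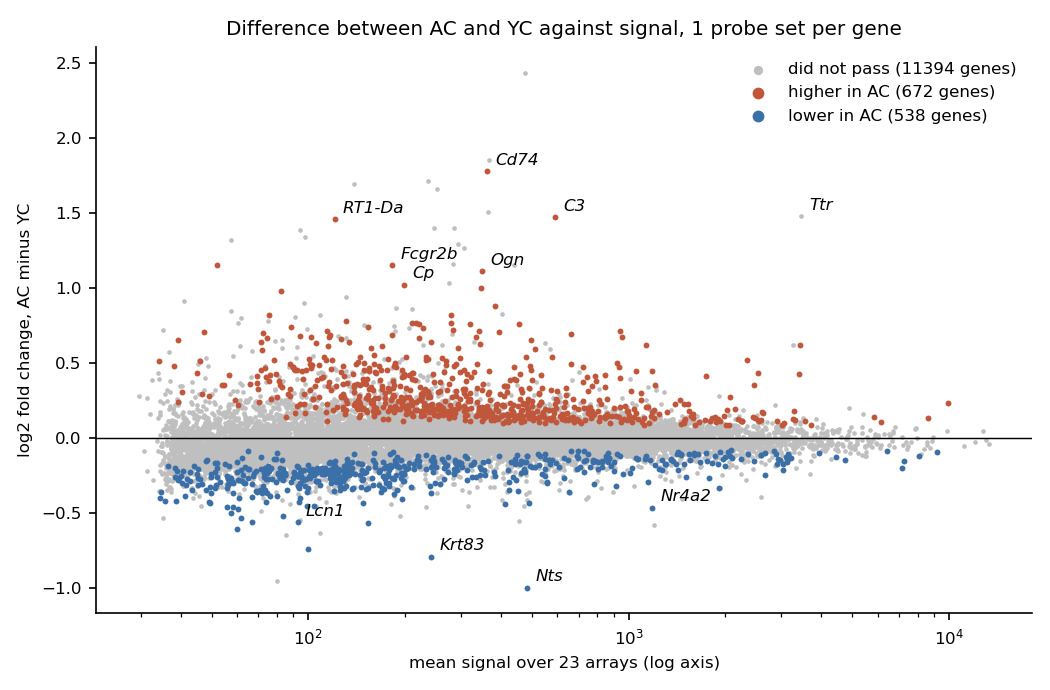
Log2 fold change of AC over YC against the mean signal over 23 arrays (log axis) for 12604 genes, with called genes in color. The 672 higher genes reach 1.78 (*Cd74*), the lower ones reach −1.0 (*Nts*), and *Ttr* at 1.48 did not pass the test.

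Microglia genes were the group with the largest share of calls among the 50 lists. Of 32 homeostatic microglia genes, 21 were higher in AC and none lower, with a median of 0.42 against −0.01 over all genes. *Trem2* and *Tyrobp*, a lipid-sensing receptor and its signaling adaptor, *Csf1r*, the receptor that microglia need to survive, and *P2ry12* and *Cx3cr1*, receptors for nucleotides and for fractalkine, were among them. *Trem2* had signals of 131, 144.5 and 169 in YC, and 197, 194, 182, 178 and 200 in AC, a rise of 0.38 (SE 0.06, adjusted p = 0.00086). All 5 AC arrays lay above all YC arrays, and AC replicate 5 did not stand out. *Csf1r* had 714, 728 and 759 in YC, and 914, 968, 912, 896 and 1665 in AC (0.50, SE 0.11, adjusted p = 0.0093, and 0.33 without replicate 5). Here the 4 other AC arrays lay close together above YC, and replicate 5 lay far above them, as for *Fcer1g*, *P2ry12* and *Cx3cr1*. The count was 18 of 32 without the choroid-high arrays, where 2.28% of all genes were higher and 0.722% lower, and 20 without AC replicate 5, where 6.44% were higher and 5.32% lower. With AC replicates 1 and 2 standing alone for the group it was 9, against 1.32% of all genes higher and 0.69% lower. In the AC and YC arrays alone 6 of 32 passed, against 1.81%. *Tmem119*, a marker that sets microglia apart from blood macrophages, did not pass (186, 202.5 and 230 in YC, and 218, 245, 221, 214 and 324 in AC, adjusted p = 0.097).

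Among 43 genes of activated microglia, 15 were higher and none lower (11 without the choroid-high arrays). *Gpnmb*, a lysosomal glycoprotein of lipid-laden phagocytes, had 249, 261.5 and 277 in YC, and 377, 367, 333, 340 and 430 in AC. *Csf1*, the cytokine that acts on *Csf1r*, had 398, 415.5 and 439 in YC, and 509, 543, 512, 521 and 533 in AC (0.33, SE 0.05, adjusted p = 0.00034). Both separated the groups on every array with little spread within AC, and both kept their call without each YC or AC array in turn and without the choroid-high arrays. *Fcgr2b*, the inhibitory Fc receptor, had 99, 104 and 112 in YC, and 190, 196, 195, 190 and 497 in AC. The rise was 1.15 (SE 0.17, adjusted p = 0.00051), and 0.88 without replicate 5. *Clec7a*, *Ch25h* and *Lgals3*, marks of a lipid-responsive phagocyte state, were called higher by 0.67, 0.74 and 0.70. Without the choroid-high arrays the differences were 0.81, 0.86 and 0.57 with adjusted p of 0.086, 0.069 and 0.15, and without replicate 5 they were 0.43, 0.52 and 0.57 with adjusted p of 0.086, 0.064 and 0.042. Of 18 genes of macrophages at the borders of the brain, 7 were higher and 1 lower (6 and 1 without the choroid-high arrays), among them *Lyz2* (0.76), *Cd4* (1.00) and *Mrc1* (0.37), and *Siglec1*, the sialic acid receptor of these cells, was lower. *Siglec1* had 182, 188 and 211 in YC, and 161, 163, 164, 154 and 131 in AC (−0.32, SE 0.07, adjusted p = 0.0069). *Cd163* and *Lyve1*, further markers of these cells, did not pass (adjusted p = 0.069 and 0.15).

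Complement genes, which tag cells and debris for removal, were also higher. This list shares genes with the homeostatic microglia list, *C1qc* among them, so the 2 counts are not separate results. Of 25, 10 were higher and 1 lower, 6 and 1 without the choroid-high arrays, and 4 and 1 with the AC and YC arrays alone. The 3 chains of C1q (*C1qa*, *C1qb* and *C1qc*), the proteases *C1r* and *C1s*, the central component *C3*, its receptor *C3ar1*, the integrin chain *Itgb2*, and the inhibitors *Serping1* and *Cd46* were the higher ones. *C1r* had 301, 308 and 324 in YC, and 411, 372, 417, 457 and 461 in AC (0.45, SE 0.05, adjusted p = 0.00021). *C3* had 250, 257 and 275 in YC, and 506, 625, 532, 575 and 1967 in AC, a rise of 1.47 (SE 0.27, adjusted p = 0.0026), and of 1.11 without replicate 5. *Serping1*, which blocks C1r and C1s, had 179, 198 and 213 in YC, and 289, 296, 307, 366 and 501 in AC. For all 3 the lowest AC array lay above the highest YC array, and replicate 5 was the highest. The C1q chains rose by 0.49 to 0.77 as measured and by 0.27 to 0.46 without replicate 5. *C8a*, a part of the terminal pore, was the lower one, at dim signals (43, 45 and 50 in YC, and 39, 32, 38, 30 and 37 in AC).

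Antigen presentation by MHC class II gave the largest difference of any called gene. Of 21 genes, 7 were higher and 1 lower (6 and none without the choroid-high arrays). Besides *Cd74*, *RT1-Da* and *RT1-DMb*, the higher ones were *Cd4* and the endosomal proteases *Ctsl*, *Ctss* and *Lgmn*, which also belong to the macrophage or lysosome lists. *Cd74*, the invariant chain that guides class II molecules to endosomes, had 106, 119 and 176 in YC, and 401, 471, 496, 513 and 339 in AC. The rise was 1.78 (SE 0.29, adjusted p = 0.0015), and 1.64 without the choroid-high arrays. *RT1-Da*, the rat class II alpha chain, had 45, 50 and 59 in YC, and 116, 174, 175, 179 and 80 in AC (1.46, SE 0.35, adjusted p = 0.014). For both genes AC replicate 5, the array highest in microglia genes, was the lowest of the AC arrays, and no AC array overlapped YC. Without the choroid-high arrays *RT1-Da* differed by 1.22 with an adjusted p of 0.083. *RT1-Ba* showed the same order of arrays without passing (50, 65 and 77 in YC, and 98, 112, 115, 129 and 79 in AC, adjusted p = 0.075). *Ciita*, the master coactivator of class II transcription, was called lower by 0.16 at an adjusted p of 0.0497. RT1 genes have near-identical copies, and signals may be shared among them. *Cd74* was also higher in the other old groups against the same YC arrays, by 1.65 in ST and 1.68 in LT.

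MHC class I and interferon-induced genes were higher mainly on the arrays that stood apart. *B2m*, the light chain of class I, rose on all AC arrays: 2710, 2799.5 and 3013 in YC, and 3395, 3511, 4005, 4208 and 4043 in AC (0.42, SE 0.06, adjusted p = 0.00027). It was the 1 class I gene of 30 that stayed called without the choroid-high arrays, whereas 6 were higher with all arrays, among them *Psme1*, *Tap1* and *Fcgrt*, and *RT1-N2* was lower. Of 53 interferon-induced genes, 14 were higher and none lower, 3 without the choroid-high arrays and 5 with the AC and YC arrays alone. *Gbp2*, a guanylate-binding protein that coats intracellular pathogens, had 87, 95.5 and 104 in YC, and 126, 122, 158, 179 and 181 in AC (0.67, SE 0.12, adjusted p = 0.0030). *Ifitm3*, which blocks viral entry, had 239, 264 and 295 in YC, and 282, 271, 434, 446 and 546 in AC. *Ifi44l* had 27, 32.5 and 41 in YC, and 32, 42, 66, 76 and 51 in AC. AC replicates 1 and 2 overlapped YC for *Ifitm3* and replicate 1 for *Ifi44l*, and replicates 3, 4 and 5 lay above. With AC replicates 1 and 2 alone no interferon-induced gene passed (1.32% of all genes were higher). *Isg15* and *Irf7*, widely used marks of a type I interferon response, did not pass in any direction (0.18 and −0.09, adjusted p = 0.36 and 0.32).

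The upstream sequences of a few of these genes are shown because the motifs known for both pathways can be read in them. Each run gives the 160 bases before the gene's start in RefSeq annotation of build GRCr8, 5′ to 3′ on the gene's strand. Capitals mark, on either strand, the core of the interferon-stimulated response element (a pair of GAAA runs with 2 bases of any kind between them) in the first 4, and ATTGG, the Y box of class II promoters, in the last.
*Gbp2* (chr2:234005567-234005726, plus strand): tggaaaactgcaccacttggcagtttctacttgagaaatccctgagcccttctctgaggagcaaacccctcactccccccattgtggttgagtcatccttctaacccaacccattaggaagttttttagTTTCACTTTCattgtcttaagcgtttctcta
*Ifi44l* (chr2:243328563-243328722, plus strand): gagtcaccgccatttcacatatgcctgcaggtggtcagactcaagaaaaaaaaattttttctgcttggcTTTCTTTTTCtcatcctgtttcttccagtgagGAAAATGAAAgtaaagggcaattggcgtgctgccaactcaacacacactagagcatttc
*B2m* (chr3:129549170-129549329, plus strand): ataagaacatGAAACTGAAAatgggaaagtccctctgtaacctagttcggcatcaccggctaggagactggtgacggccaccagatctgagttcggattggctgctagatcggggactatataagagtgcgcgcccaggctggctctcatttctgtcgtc
*Tap1* (chr20:4668544-4668703, minus strand): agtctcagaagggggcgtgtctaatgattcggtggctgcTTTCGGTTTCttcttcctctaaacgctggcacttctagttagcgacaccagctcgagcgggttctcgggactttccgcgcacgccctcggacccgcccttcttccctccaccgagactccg
*RT1-Da* (chr20:4515255-4515414, plus strand): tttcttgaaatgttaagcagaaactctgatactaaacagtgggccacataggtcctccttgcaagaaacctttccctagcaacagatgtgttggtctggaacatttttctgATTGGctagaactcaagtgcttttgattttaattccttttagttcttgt
In windows of 300 bases (250 before to 50 after the start, both strands, overlapping matches kept), the response element core was present in 3.92% of all 33469 promoters. Among interferon-induced genes with a promoter in the table it was present in 9 of 13 that were higher in AC and in 16 of 27 that were not. For class I genes the numbers were 4 of 5 and 6 of 22. ATTGG was present in 37.5% of all promoters, in 5 of 5 class II genes that were higher and in 9 of 12 that were not. Each motif was searched in its own lists, and overlaps between the motifs were not counted. *Ifi47* and *Sp100*, which were called higher, had no match in this window. A match is a description of the letters and not evidence of a bound factor.

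**Figure D3:**
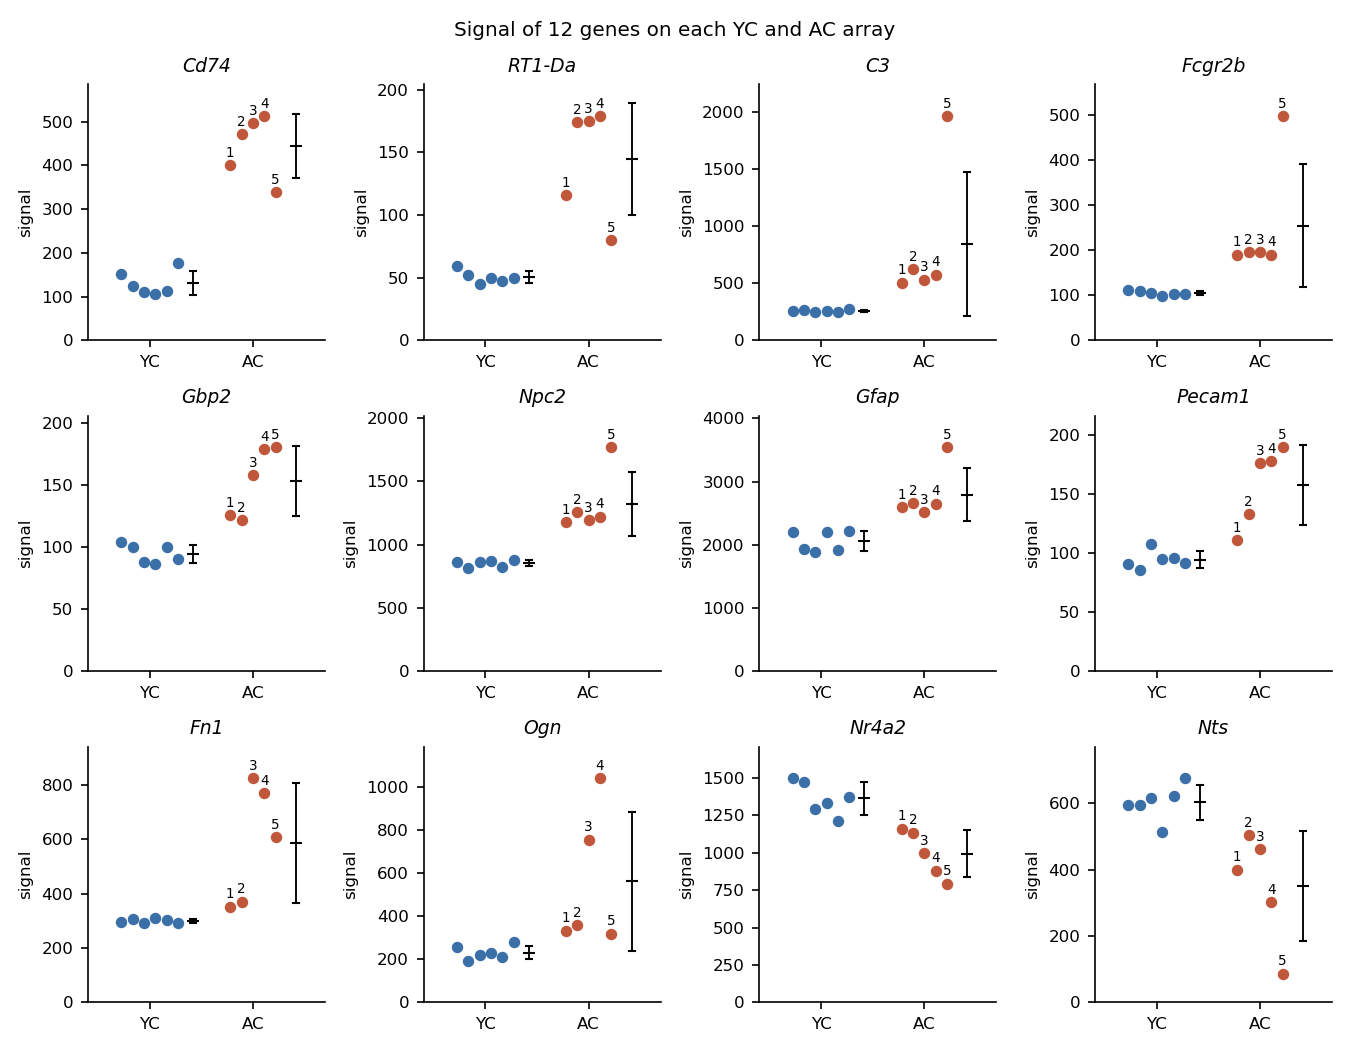
Signal of 12 genes on each array (linear axes from 0), with YC in blue and AC in red numbered by replicate, and the group mean with its SD (n = 6 and 5) beside the points. Replicate 5 is highest for *C3* (1967) and *Fcgr2b* (497) and lowest for *Nts* (87), replicates 3 and 4 are highest for *Fn1* (825 and 770) and *Ogn* (754 and 1040), and *Cd74* is higher on all 5 AC arrays without either pattern.

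Of 74 lysosomal genes, 25 were higher and 2 lower in AC, with a median of 0.09. The counts were 13 and none without the choroid-high arrays, with a median of 0.08, and 9 and none with the AC and YC arrays alone. *Npc2*, which carries cholesterol out of the lysosome, led them (817, 860 and 882 in YC, and 1178, 1253, 1190, 1220 and 1770 in AC, a rise of 0.61, SE 0.09, adjusted p = 0.00037). *Hexa*, a subunit of the ganglioside hydrolase hexosaminidase, had 434, 470 and 498 in YC, and 570, 547, 607, 602 and 547 in AC. *Lamp1*, the main membrane glycoprotein of lysosomes, rose by 0.11 (SE 0.02, adjusted p = 0.0062), from 1776 to 1845 over YC arrays to 1946 to 1996 over AC arrays. *Npc2* was raised most on replicate 5, whereas *Hexa* and *Lamp1* were not, and no AC array of the 3 overlapped YC. The cathepsins *Ctsl*, *Ctsh*, *Ctss*, *Ctsz*, *Ctsd*, *Ctsc* and *Ctsk* were all called higher, by 0.23 to 0.54. *Atp6v1a*, the catalytic subunit of the proton pump that acidifies lysosomes, was lower (2794, 3163.5 and 3249 in YC, and 2908, 2631, 2713, 2736 and 2774 in AC, −0.18, adjusted p = 0.025). Of 34 autophagy genes 1 was higher and 1 lower (none without the choroid-high arrays), below the shares over all genes. *Abca1*, *Lcat* and *Apoe*, which load and mature lipoproteins, were among 7 higher and 1 lower of 40 cholesterol genes, 6 and none without the choroid-high arrays. *Lcat* had 293, 310.5 and 320 in YC, and 380, 391, 380, 413 and 413 in AC (0.36, SE 0.06, adjusted p = 0.0024), with AC arrays close together above YC.

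Reactive astrocyte genes were higher, and homeostatic ones largely not. Of 32 reactive genes, 13 were higher and 2 lower (10 and none without the choroid-high arrays, and 12 and none with the AC and YC arrays alone). *Gfap*, the intermediate filament of reactive astrocytes, had 1892, 2067.5 and 2215 in YC, and 2592, 2663, 2519, 2651 and 3548 in AC (0.43, SE 0.08, adjusted p = 0.0022). *Vim*, another intermediate filament, had 694, 770.5 and 865 in YC, and 1003, 1042, 1339, 1308 and 1457 in AC. *Osmr*, the receptor for oncostatin M, had 131, 142 and 151 in YC, and 163, 172, 181, 185 and 205 in AC. All 3 separated the groups on every array. *Stat3*, a transcription factor of the reactive state, rose by 0.24 (SE 0.05), and *Cp*, which encodes ceruloplasmin, an oxidase of iron, by 1.02 (SE 0.18), or by 0.77 without replicate 5, on which its signal was 553 against 201 to 266 on the other AC arrays. *Osmr* was 0.07 above YC in ST and −0.01 from YC in LT. Of 29 homeostatic astrocyte genes, *S100b* (0.09) and *Agt* (0.20) were called higher, 3 genes of the list passed without the choroid-high arrays, *Agt* lost its call without replicate 5 (0.13, adjusted p = 0.11), and *Aqp4*, the water channel of astrocyte endfeet, did not differ detectably (0.02, SE 0.05).

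Of 33 endothelial genes, 13 were higher and none lower, with a median of 0.22. The count was 7 without the choroid-high arrays and 6 with the AC and YC arrays alone. Of 20 genes of pericytes and smooth muscle, the contractile cells around vessels, 2 were higher and none lower, with a median of 0.02, and 1 was higher without the choroid-high arrays. The score of the endothelial list was −0.13 to −0.04 in YC, −0.01 and 0.04 on AC replicates 1 and 2, and 0.21 to 0.24 on replicates 3, 4 and 5. *Pecam1*, an adhesion molecule of endothelial junctions, had 86, 93.5 and 108 in YC, and 111, 133, 176, 178 and 190 in AC (0.71, SE 0.10, adjusted p = 0.00037). *Abcb1a*, the drug efflux pump of the blood-brain barrier, had 422, 454.5 and 485 in YC, and 535, 566, 639, 638 and 666 in AC (0.42, SE 0.06, adjusted p = 0.00029). *Cldn5*, the main claudin of the barrier, had 209, 232.5 and 256 in YC, and 274, 270, 409, 331 and 352 in AC. All AC arrays lay above YC for these 3, with replicates 1 and 2 the closest to YC. *Pecam1*, *Abcb1a*, *Cldn5* and the receptor *Flt1* still passed with replicates 1 and 2 alone (0.36, 0.28, 0.23 and 0.26, with adjusted p of 0.017, 0.033, 0.045 and 0.028). *Kdr*, the main receptor for vascular endothelial growth factor, had 100, 104 and 110 in YC, and 113, 119, 183, 206 and 120 in AC, and its rise of 0.46 was 0.17 without the choroid-high arrays.

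Matrix genes were split. Of 70 collagens, laminins and other matrix genes, 8 were higher and 7 lower (3 and none without the choroid-high arrays, 6 and 14 without replicate 5). The score of 24 genes of meninges and fibroblasts, cells that make much of this matrix, was −0.15 to −0.01 in YC, −0.02 and 0.07 on AC replicates 1 and 2, 0.42 and 0.50 on replicates 3 and 4, and 0.26 on replicate 5, and 4 of the 24 were higher (2 without the choroid-high arrays). The part of these cells in the matrix differences was not tested. *Fn1*, fibronectin, had 291, 299.5 and 311 in YC, and 352, 370, 825, 770 and 608 in AC, and its rise of 0.87 (SE 0.16, adjusted p = 0.0029) was 0.52 without the choroid-high arrays. *Ogn*, a small proteoglycan of fibroblasts, had 192, 224 and 280 in YC, and 333, 359, 754, 1040 and 318 in AC, and its rise of 1.11 became 0.55. *Lamc1*, a laminin chain of vessel basement membranes, had 271, 278.5 and 291 in YC, and 303, 332, 362, 356 and 370 in AC (0.30, SE 0.05, adjusted p = 0.00078). For *Fn1* and *Ogn* the 2 choroid-high arrays were the highest, and for *Lamc1* they were not. The fibrillar collagen *Col3a1* (−0.21), elastin, *Eln* (−0.31), and *Col7a1*, *Col11a1*, *Col14a1*, *Col27a1* and the link protein *Hapln1* were called lower, and all of these lost the call without the choroid-high arrays, with *Col3a1* at −0.21 and *Eln* at −0.30.

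**Figure D4:**
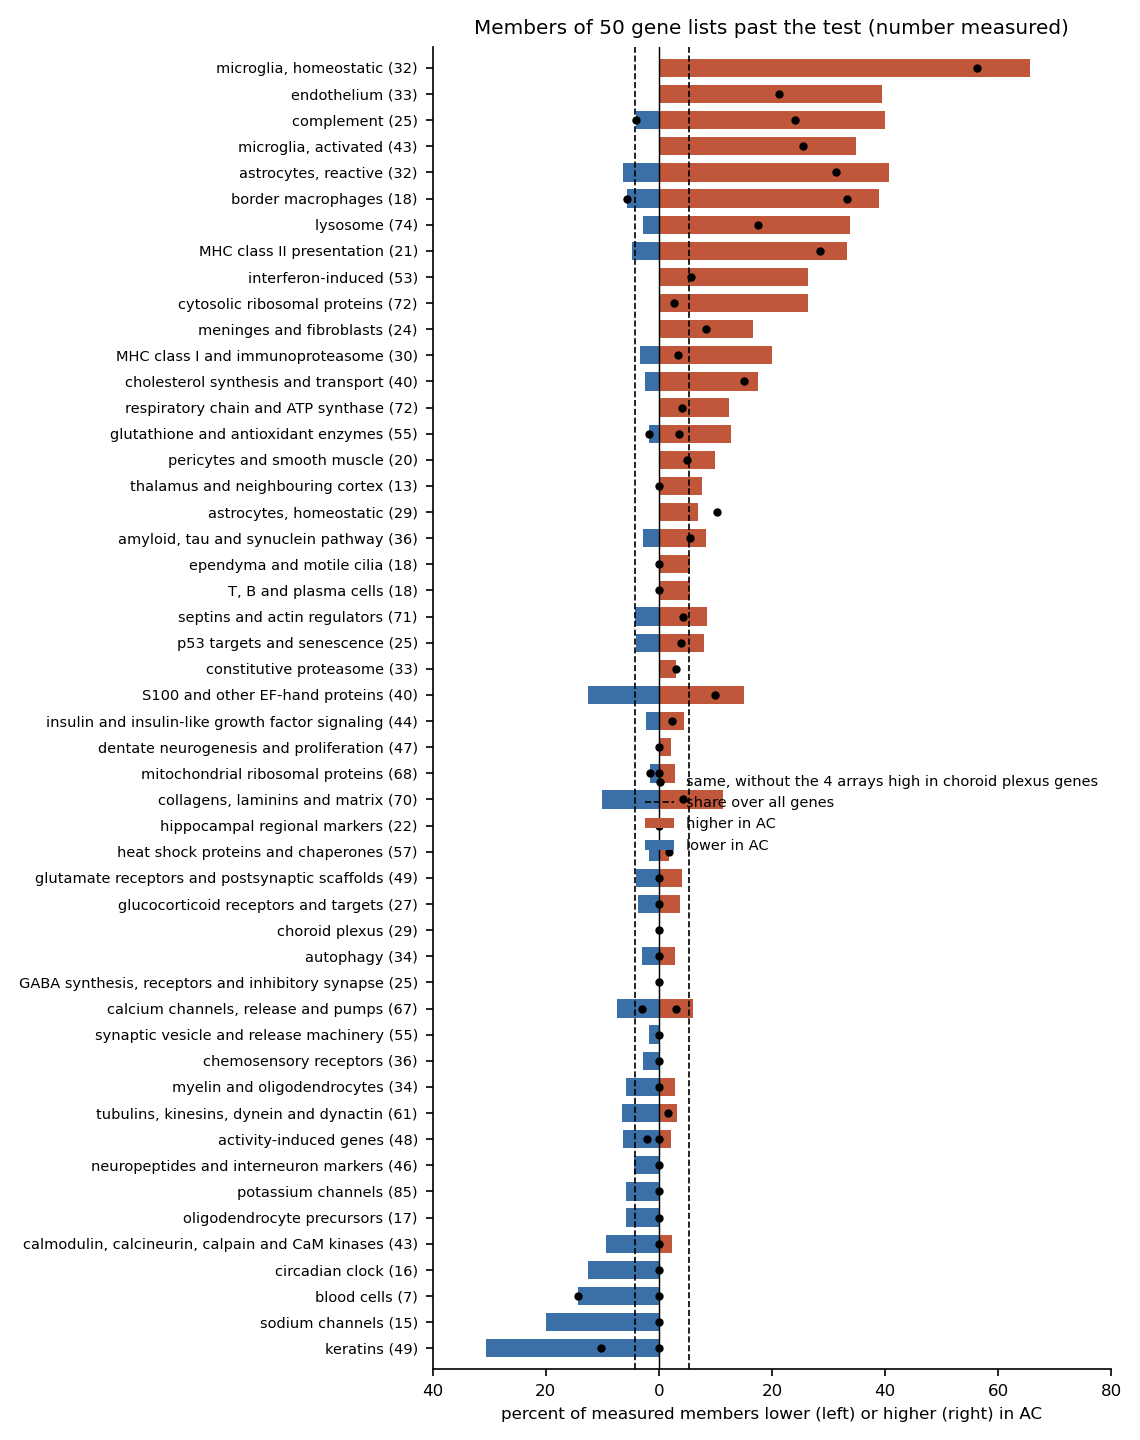
Percent of the measured members of 50 gene lists that were higher (right, red) or lower (left, blue) in AC, with black points for the same percent without the 4 choroid-high arrays and dashed lines at the shares over all genes (5.33% higher and 4.27% lower as measured). Homeostatic microglia genes reach 21 of 32 and stay at 18, interferon-induced genes go from 14 to 3 of 53 and cytosolic ribosomal proteins from 19 to 2 of 72, and keratins are the list with the most lower calls (15 of 49).

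Called differences in genes of protein synthesis and respiration were small. Of 72 cytosolic ribosomal proteins, 19 were higher and none lower, with a median of 0.08 and a range of −0.10 to 0.22. *Rpl41* had 2359, 2487 and 2548 in YC, and 2718, 2627, 2717, 2927 and 2863 in AC (0.17, SE 0.03, adjusted p = 0.0018). *Rps28* had 910, 976.5 and 1011 in YC, and 1065, 1063, 1125, 1109 and 1185 in AC. The groups did not overlap in either. Without the choroid-high arrays 2 of the 72 passed with a median of 0.06, 4 passed with the AC and YC arrays alone, and with equal array medians 7 passed and the median was 0.05. Leaving out AC replicate 5 raised the count to 26. Of 72 respiratory chain and ATP synthase subunits, 9 were higher and none lower, and 3 without the choroid-high arrays, with 48 of the 72 differences above 0 and 24 below. *Ndufa11*, a subunit of complex I, had 833, 934.5 and 990 in YC, and 1059, 1079, 1141, 1179 and 1243 in AC (0.31, SE 0.06, adjusted p = 0.0038), and *Atp5me*, of the ATP synthase, rose by 0.24. Both separated the groups on every array. Of 68 mitochondrial ribosomal proteins 2 were higher and 1 lower (none and 1 without the choroid-high arrays), and of 33 constitutive proteasome subunits 1 was higher with and without them, below the shares over all genes. Among 55 glutathione and antioxidant genes, 7 were higher (12.7%) and 1 lower (1.8%), against 5.33% and 4.27% over all genes. Without the choroid-high arrays 2 were higher and 1 lower. *Prdx6*, a peroxiredoxin of astrocytes, had 1090, 1117.5 and 1137 in YC, and 1192, 1203, 1224, 1346 and 1369 in AC (0.18, SE 0.04, adjusted p = 0.0037), and *Ftl1*, the ferritin light chain, rose by 0.11. Of 57 heat shock proteins and chaperones, *Hspb1*, a small heat shock protein of astrocytes and vessels, was higher by 0.64 and *Hspa4l* lower, below the shares over all genes. Without the choroid-high arrays 1 was higher and none lower.

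Neuronal lists gave few calls. *Nr4a2*, an activity-induced nuclear receptor, had 1209, 1352 and 1499 in YC, and 1161, 1134, 998, 879 and 794 in AC (−0.47, SE 0.09, adjusted p = 0.0033). Every AC array lay below every YC array, and the difference was −0.42 without the choroid-high arrays and −0.39 without replicate 5. It was −0.12 in ST and −0.32 in LT against the same YC arrays. *Homer1*, a scaffold of glutamate receptors whose short form is activity-induced, was lower by 0.16 on the log2 scale, from 837 to 930 over YC arrays to 739 to 823 over AC arrays. The widely used activity genes *Arc*, *Fos* and *Egr1* did not pass. For *Egr1* the YC signals were 1467, 1581.5 and 2023 and the AC signals 1574, 1672, 1401, 1382 and 577, so that the difference of −0.41 was −0.13 without replicate 5. Of 48 activity-induced genes, 3 were lower and 1 higher, near the shares over all genes, and 1 was lower without the choroid-high arrays.

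Of 67 calcium channels, release channels and pumps, 4 were higher and 5 lower (2 and 2 without the choroid-high arrays), which is near the shares over all genes. *Itpr3*, an inositol trisphosphate receptor, had 132, 142.5 and 151 in YC, and 131, 121, 122, 116 and 121 in AC (−0.22, SE 0.04, adjusted p = 0.0032). *Slc8b1*, the sodium-calcium exchanger of mitochondria, had 123, 128 and 140 in YC, and 150, 166, 145, 145 and 161 in AC (0.24, SE 0.04, adjusted p = 0.0035). Groups did not overlap in either gene. *Ryr2*, the main ryanodine receptor of the hippocampus, and the L-type channel genes *Cacna1c* and *Cacna1d* did not pass (0.03, 0.10 and 0.06, SE 0.07, 0.08 and 0.07). *Fkbp1b*, which stabilises ryanodine receptors and is the transgene of the ST and LT rats, had 353, 368 and 411 in YC, and 458, 379, 374, 364 and 428 in AC (0.10, SE 0.13, adjusted p = 0.66). That SE pools the spread of the ST and LT rats, which carry this transgene, and with the AC and YC arrays alone the adjusted p was 0.39. The platform annotation assigns 1 probe set to *Fkbp1b*, whereas the study states that the array has none for it, so the identity of this signal is uncertain. Its paralog *Fkbp1a* differed by −0.04 (SE 0.03).

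Of 43 calmodulin, calcineurin, calpain and CaM kinase genes, 4 were lower (9.3%) and 1 higher (2.3%), against 4.27% and 5.33% over all genes. None passed without the choroid-high arrays. *Ppp3cb*, a catalytic subunit of calcineurin, had 3159, 3293.5 and 3390 in YC, and 3236, 2876, 2894, 2946 and 2760 in AC (−0.16, SE 0.04, adjusted p = 0.0099), with AC replicate 1 inside the YC range. Without the choroid-high arrays its difference was still −0.16, with an adjusted p of 0.072. Of 85 potassium channel genes 5 were lower (5.9%) and none higher, near the 4.27% lower over all genes. *Kcnip4*, a subunit of A-type channels, was among the lower ones (1412, 1472 and 1594 in YC, and 1475, 1361, 1338, 1254 and 1144 in AC). Of 15 sodium channel genes 3 were lower (20%) and none higher, among them *Scn3b* and *Scn2b*. None of these 8 passed without the choroid-high arrays, where *Kcnip4* differed by −0.17 against −0.18 with all arrays, *Scn3b* by −0.25 against −0.21 and *Scn2b* by −0.08 against −0.14. Without replicate 5, 9 potassium channel genes were lower and 1 higher, where 5.32% of all genes were lower and 6.44% higher. *Vsnl1*, a neuronal calcium sensor, had 7135, 7756.5 and 8081 in YC, and 6950, 7518, 6504, 6512 and 5817 in AC (−0.20, adjusted p = 0.021), with AC replicate 2 inside the YC range.

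The neuropeptide neurotensin, *Nts*, had the largest fall of any called gene. *Nts* signals were 515, 606.5 and 677 in YC, and 400, 505, 462, 303 and 87 in AC (−1.0, SE 0.30, adjusted p = 0.039). All AC arrays lay below YC, and replicate 5 far below the others. The call was lost in 7 of the fits that left out 1 AC or YC array, among them every fit without a YC array. The difference was −0.55 without replicate 5, and without the choroid-high arrays it was −1.21 with an adjusted p of 0.077. Against the same YC arrays it was −0.27 in ST and −0.44 in LT. Of 46 neuropeptide and interneuron genes 2 were lower (4.3%, near the 4.27% over all genes) and none higher. Of 25 GABA synthesis and receptor genes none passed, with a median of −0.10. *Gad2*, a GABA-synthesizing enzyme, had 1835, 2251 and 2558 in YC, and 1711, 2412, 1604, 1598 and 1376 in AC (−0.34, SE 0.13, adjusted p = 0.10). AC replicate 2 lay inside the YC range and the other 4 below it. *Zic1* was likewise highest in AC on replicate 2, and both genes were lowest in YC on replicates 1 and 4. Whether uneven dissection accounts for the *Gad2* difference was not tested. Of 55 synaptic vesicle genes 1 was lower (*Syngr3*, −0.21, SE 0.05, adjusted p = 0.012), and of 49 glutamate receptor and scaffold genes 2 were higher and 2 lower. Both lists were near or below the shares over all genes. None of these synaptic genes passed without the choroid-high arrays.

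Of 71 septins and actin regulators 6 were higher and 3 lower (3 and none without the choroid-high arrays), near the shares over all genes. *Msn*, the actin linker moesin, had 250, 257.5 and 276 in YC, and 299, 329, 358, 387 and 373 in AC (0.42, SE 0.07, adjusted p = 0.0021), and *Septin9* had 733, 761 and 775 in YC, and 818, 832, 917, 1019 and 1262 in AC. Lower were the neuronal profilin *Pfn2* (−0.14) and the capping protein subunit *Capzb* (−0.13), with *Actg1* (−0.09). Of 61 tubulin and motor genes 4 were lower and 2 higher, also near those shares (none and 1 without the choroid-high arrays, 9 and 1 without replicate 5). Of 34 oligodendrocyte genes, 1 was higher and 2 lower, with a median of −0.02, and none passed without the choroid-high arrays. Without replicate 5, 6 were higher and none lower, with a median of 0.05, and with AC replicates 1 and 2 alone 3 were higher, with a median of 0.09. Both of the lower ones, *Ugt8* and *Mal*, were lowest on AC replicate 5 (538 and 1122 against 633 to 809 and 1659 to 2075 on the other AC arrays). *Mbp* did not pass (−0.08, SE 0.04, adjusted p = 0.22). Of 47 neurogenesis genes 1 was higher and none lower (none passed without the choroid-high arrays, and 2 were higher and 5 lower without replicate 5). *Dcx*, which marks immature granule neurons, had 449, 592 and 646 in YC, and 362, 549, 341, 416 and 806 in AC. The *Dcx* difference was −0.25 with all arrays, which did not pass, and −0.44 without replicate 5, its highest array (adjusted p = 0.039). None of 22 hippocampal regional markers passed.

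Keratins were the list with the most lower calls. Of 49 measured, 15 were lower and none higher, with a median of −0.19. The count was 5 without the choroid-high arrays, 3 with AC replicates 1 and 2 alone and 6 with the AC and YC arrays alone, while the median was −0.18 and −0.19 in the first 2 of these. After quantile normalization 15 were lower, with a median of −0.14. Keratins form the filaments of epithelia and hair and are not a known product of hippocampal cells. *Krt83* had 279, 303 and 323 in YC, and 175, 135, 177, 195 and 192 in AC (−0.79, SE 0.17, adjusted p = 0.0075), the widest gap of the list, and *Krt9* had 147, 151.5 and 166 in YC, and 116, 109, 115, 136 and 127 in AC (−0.34, SE 0.06, adjusted p = 0.0022). No AC array reached the YC range in either. Mean signals of the 15 ran from 35.7 (*Krt4*) to 757 (*Krtap5-8*), and hair keratins are close paralogs whose probes may share signal. The list also counts genes of keratin-associated proteins, such as *Krtap5-8*, which are not keratins. *Krtap5-8* lost its call in 8 of the fits that left out 1 AC or YC array. Other lower genes were among the 15 largest falls whose groups did not overlap. *Lcn1*, a lipocalin of tears, had 101, 111.5 and 123 in YC, and 81, 77, 72, 82 and 67 in AC (−0.56, SE 0.07, adjusted p = 0.00027), *Bcl2l15* had 86, 97 and 104 against 70, 53, 72, 68 and 72, and *Pbp2* 97, 117.5 and 130 against 84, 84, 80, 85 and 81. *Ebi3*, a subunit shared by 2 interleukins, had 434, 475 and 518 in YC, and 414, 377, 346, 281 and 340 in AC (−0.44, SE 0.07, adjusted p = 0.0012). Dimness moved with the direction over all genes: of 2714 genes with a mean signal under 100, 60 were higher and 166 lower, with a median of −0.07, and of 3457 genes between 200 and 500, 260 were higher and 87 lower. After quantile normalization the dim genes gave 97 higher and 93 lower calls and a median of −0.01. Whether the scale of the dim signals accounts for the lower calls was not tested.

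Set against the choroid-high arrays gene by gene, the higher and lower calls fared differently. Of the 672 higher genes, 245 (36.5%) passed again without those arrays, and of the 538 lower genes 79 (14.7%). With the choroid plexus score as a covariate on all arrays, 458 and 309 of them passed (4.67% of all genes were higher and 2.83% lower in that fit). Of 76 genes called higher by 0.5 or more, 21 had a rise that was smaller by over 1.5 times without the choroid-high arrays. The 5 most reduced, chosen by this ratio after the values were seen, were *Angpt2*, a vessel-destabilising ligand (57, 62.5 and 69 in YC, and 73, 86, 211, 221 and 98 in AC, 0.98 against 0.44), *Anxa2* (0.74 against 0.34), the ciliary motor *Dnah12* (0.53 against 0.25), *Il1r1* (0.54 against 0.26) and *Ogn*. *Jchain*, the joining chain of secreted antibodies, had 30, 35 and 37 in YC, and 34, 116, 331, 45 and 40 in AC, and its call (1.15, adjusted p = 0.049) was lost without the choroid-high arrays (0.68, adjusted p = 0.12). All YC signals of *Jchain* were under the signal minimum of 40. Other genes kept their size without the choroid-high arrays: the difference of *Cd74* was 1.64, of *Gpnmb* 0.57, of *Csf1* 0.34, of *Gfap* 0.50 and of *Trem2* 0.43, each still past the test. AC replicate 5 stayed in that fit and weighed more there than with all arrays. In the fit that left out only replicate 5, *Gfap* differed by 0.34, *Gpnmb* by 0.43 and *Cd74* by 1.87, each still called.

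**Figure D5:**
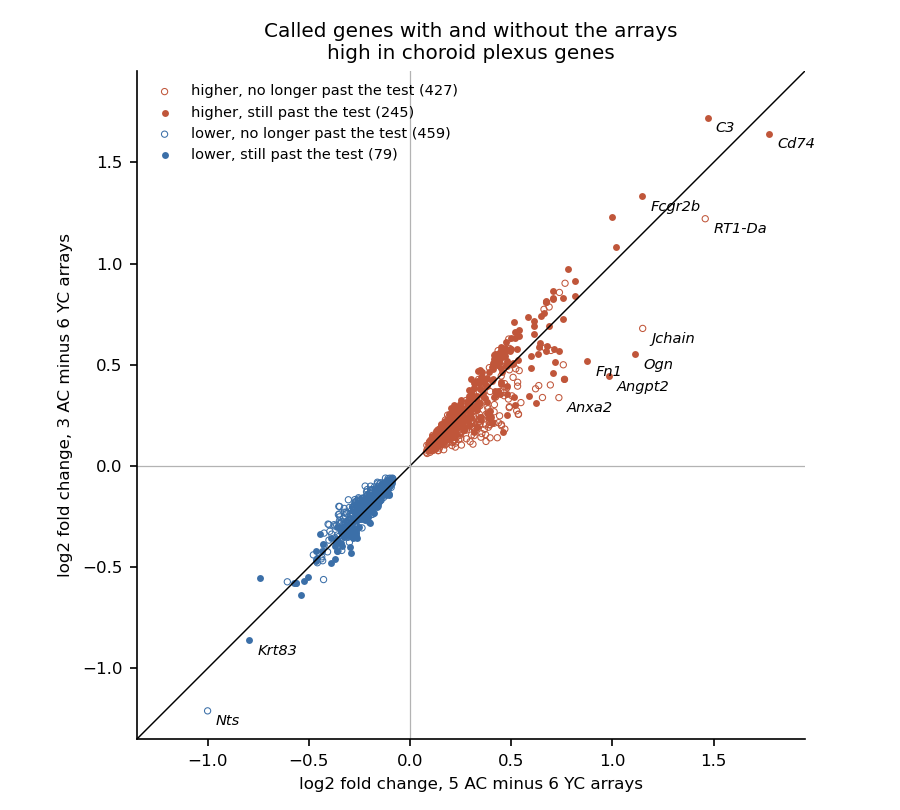
Log2 fold change of each called gene with all arrays (horizontal) and without the 4 choroid-high arrays (vertical), filled where the gene passed both times; the line marks equal values. *Cd74*, *C3* and *Fcgr2b* lie close to the line, *Fn1*, *Angpt2*, *Ogn* and *Anxa2* lie below it, and 245 of 672 higher and 79 of 538 lower genes are filled.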

How the data were processed

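RNA from the dorsal hippocampus was measured on the Affymetrix Gene 1.0 ST platform for rat, with 1 array per animal. The authors normalized the scans by RMA in Partek software (versions not given in the sources used here) and deposited intensity values on a linear scale, rounded to whole numbers, for 29211 probe sets. Gene symbols came from the platform annotation: 15307 probe sets had 1 symbol, 323 several and 13581 none. Log2 of the deposited signal was tested for the 13339 probe sets that had 1 symbol and reached a signal of 40 on 4 or more arrays. Limma 3.58.1 in R 4.3.3 (lmFit and eBayes) was run on all 23 arrays with 1 mean per group, and p-values were adjusted by Benjamini-Hochberg. Blank values (238 in YC, none in AC, in 50 tested probe sets of these groups) were left missing. The probe set with the highest mean signal stood for each of 12604 genes. P-values measure the spread between animals, and the number of arrays limits the precision.

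Genes and lists were chosen with earlier results of these data known. Named genes were the 15 largest non-overlapping calls each way, up to 6 called members of each of the 50 lists with the smallest p (or 3 where none was called), choroid plexus genes, *Fkbp1b* and *Fkbp1a*, and members of lists of 25 or fewer. Further called members, regional markers and well-known members that did not pass were added after their values were seen. List scores are means of log2 signals centred on each gene's mean. Promoter sequences came from RefSeq (GRCr8). In data simulated for this comparison with 13339 probe sets, the test called 46% of 50 probe sets changed by 0.2 log2 units, 88% of 50 changed by 0.4 and 9 of 13139 unchanged ones. The simulated noise was normal, independent between probe sets and of equal spread in all groups. It held neither the wider spread of the AC arrays nor shifts of whole lists on single arrays. These shares therefore need not hold for the real arrays. Alternatives covered the scaling, signal minimum, probe set choice, variance model, covariates, the replicate block, the authors' analysis of variance with its Fisher's LSD contrast, and left-out arrays. Figures were drawn with matplotlib 3.10.9.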

Additional observations from a re-analysis of the deposited data

Results flagged for a closer look

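On 25 of the genes named above, AC replicate 5 lay so far from the other 4 AC arrays that its gap to the nearest of them passed Dixon's 95% critical value for 5 samples (0.71 of the group's range). Its log2 signal was the highest of the group for *C1qa* (10.49), *C1qb* (9.65), *C1qc* (9.32), *C1s* (7.32), *C3* (10.94), *Cd4* (9.85), *Ch25h* (7.67), *Clec7a* (7.85), *Cp* (9.11), *Csf1r* (10.70), *Ctss* (11.74), *Ctsz* (8.80), *Cx3cr1* (10.32), *Fcer1g* (10.87), *Fcgr2b* (8.96), *Gfap* (11.79), *Ifi47* (8.06), *Itgb2* (8.24), *Npc2* (10.79), *P2ry12* (9.60) and *Tyrobp* (8.69). It was the lowest for *Egr1* (9.17), *Prox1* (8.38), *Siglec1* (7.03) and *Wfs1* (9.18). Most of the genes on which it was highest are made by microglia and macrophages. Single arrays of other animals were also set apart: *Bcl2l15* (5.73) on AC replicate 2, *Ch25h* (5.36) on YC replicate 3, *Clec7a* (6.43) on YC replicate 1, *Col3a1* (7.64) on YC replicate 1, *Ctsz* (7.39) on YC replicate 1, *Krt9* (7.38) on YC replicate 6 and *Mal* (10.96) on YC replicate 3. Chance sets apart about 1 in 20 groups by this measure. What set these arrays apart was not tested.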

How the results depend on the processing

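The count of 1300 probe sets (742 higher, 558 lower) fell furthest where arrays were left out or the spread was taken from fewer of them. It was 398 (303 and 95) without the 4 choroid-high arrays, 262 (175 and 87) without these and AC replicate 5, a setting chosen after seeing the data, and 385 (242 and 143) with AC and YC arrays alone. Leaving out each YC or AC array in turn gave 796 to 1868 in all, 510 to 973 higher and 286 to 895 lower: 796 without AC replicate 3, 820 without AC replicate 4, 853 without YC replicate 2, and 1868 without AC replicate 1, and the lower count was 338 without YC replicate 6. Single calls near the threshold were often lost in these fits: *Cd46* and *Ciita* in 9, *Tap1*, *RT1-N2*, *Scn3b*, *Mal*, *Agt* and *Jchain* in 8, and *Nts* in 7. Others, such as *Csf1*, *Gpnmb* and *Cd74*, kept the call in all of them. With the choroid plexus score as a covariate 368 were lower, with equal array medians 1200 were lower, with all probe sets past the signal minimum 2355 passed (1261 lower), and at the methods' unadjusted thresholds 2441 passed (1299 and 1142). For these shifts beyond the smaller number of arrays or larger number of probe sets the cause was not tested. Quantile normalization, other signal minimums, 1 probe set per gene, the variance trend, array weights, the RNA integrity number and the methods' test with Benjamini-Hochberg adjustment kept the total within 1.5 times. Some results did turn. The balance of 742 higher and 558 lower became 507 and 1200 with equal array medians. Oligodendrocyte genes went from 1 higher and 2 lower to 6 and none without AC replicate 5. *Aqp4* without AC replicate 5 and *Ryr2* without AC replicate 1 fell to −0.03, though neither was called in any of these fits. Replicate numbers did not pair the animals: deviations of same-numbered AC and YC arrays correlated at −0.03 to 0.13, no AC array correlated best with its own number, and the replicate block gave 1169. With 5 and 6 animals, differences near 0.2 log2 units were often below what the test could call.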

Other observations

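Probe sets without a single gene symbol were left out of the comparison. Of 10220 that passed the signal minimum, 370 were higher and 721 lower in AC when all probe sets past the minimum were fitted together, or 10.7%. The genes of these probe sets are not named here.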
